A study of Mus musculus with 6 samples.

Results

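The genes described here are 10 regulators and targets of NRF2, the transcription factor that drives the antioxidant response. They were taken by symbol from the deposited tables, and all 10 were found among the 25805 listed genes. RNA was sequenced from mouse kidney in 6 libraries, 3 of genotype WT and 3 of genotype CXCR2 knockout. All 6 carry the treatment IRI (ischaemia-reperfusion injury, a period without blood supply followed by its return), and uninjured kidney was not analysed here. The labels give no strain, age, duration of ischaemia or reperfusion, kind of Cxcr2 allele or number of animals per library. The p-values therefore measure the spread between these libraries, which may be technical.

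NRF2, encoded by Nfe2l2, is a basic leucine zipper factor that is made continuously. In unstressed cells KEAP1 binds it and presents it to a CUL3 ubiquitin ligase, so that it is degraded. Oxidants and electrophiles modify cysteines of KEAP1, NRF2 then escapes degradation, pairs with a small MAF protein and binds antioxidant response elements beside its target genes. Because this control acts on the protein, the transcript of Nfe2l2 does not report its activity. The kidney tubule, rich in mitochondria and exposed to a burst of oxidants when blood flow returns, is a classical site of this response. The targets among the 10 genes make glutathione (Gclc, Gclm), reduce thioredoxin and peroxiredoxins (Txnrd1, Srxn1), reduce quinones and carbonyls (Nqo1, Cbr3), break down haem (Hmox1) and supply NADPH (G6pdx).

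The promoter sequences show which of these genes hold an antioxidant response element core close to their start. RefSeq promoter windows of GRCm38.p6, from 250 bases before to 50 bases after a start site, were matched by symbol for 8 of the 10 genes, with 10 windows in all. Hmox1 and Gclc had no entry. The core TGACNNNGC was searched on both strands, where the opposite strand reads GCNNNGTCA. It was found in windows of 5 of the 8 genes, against 14% of all 27025 genes. By window, it was found in 5 of the 10, against 12.4% of all 32851 promoter windows. Base composition was not taken into account. The 5 stretches are printed on the strand of the gene with up to 20 bases on each side, and the capitals mark the match.
Nfe2l2 (chr2:75704875-75704913, minus strand, 240 bases upstream of the start): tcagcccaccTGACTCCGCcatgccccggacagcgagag
Gclm (chr3:122245403-122245451, plus strand, 134 bases upstream): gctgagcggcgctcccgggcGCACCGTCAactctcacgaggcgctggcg
Txnrd1 (chr10:82859094-82859142, plus strand, 92 bases upstream of the start of 1 of its 3 windows): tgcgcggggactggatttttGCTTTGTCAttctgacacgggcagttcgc
G6pdx (chrX:74428909-74428957, minus strand, 57 bases upstream): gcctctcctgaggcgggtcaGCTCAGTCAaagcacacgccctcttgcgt
Srxn1 (chr2:152105532-152105573, plus strand, 28 bases downstream): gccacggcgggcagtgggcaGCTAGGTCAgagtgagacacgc

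The windows of Nqo1, Cbr3 and Keap1 held no match. Nqo1 and Cbr3 are shown whole, since they had the lowest values relative to wild type of the 10 genes. A window without these letters says nothing of elements farther away, and a match is a description of letters, not a measured binding site.
Nqo1 (chr8:107403156-107403455, minus strand): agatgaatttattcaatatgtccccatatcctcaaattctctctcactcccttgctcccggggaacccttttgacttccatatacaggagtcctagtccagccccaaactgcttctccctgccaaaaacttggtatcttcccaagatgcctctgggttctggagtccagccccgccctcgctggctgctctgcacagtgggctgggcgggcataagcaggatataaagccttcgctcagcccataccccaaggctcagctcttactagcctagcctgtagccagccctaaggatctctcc
Cbr3 (chr16:93682969-93683268, plus strand): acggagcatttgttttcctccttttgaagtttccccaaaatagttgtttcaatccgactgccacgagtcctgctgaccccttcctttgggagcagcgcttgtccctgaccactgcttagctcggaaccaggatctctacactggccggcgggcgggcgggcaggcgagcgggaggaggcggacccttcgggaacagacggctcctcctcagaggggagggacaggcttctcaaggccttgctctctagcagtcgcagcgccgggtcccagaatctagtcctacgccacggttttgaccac

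Values are normalized counts, that is, reads per gene divided by 1 size factor per library. Depth was 15518083 to 20356601 recovered reads per library. Markers of the proximal tubule (Slc34a1), thick limb (Umod) and collecting duct (Aqp2) were present in all 6 libraries. Cxcr2, the targeted gene, stood at 15.9, 88.8 and 56.9 in wild type and at 98.0, 36.8 and 56.6 in the libraries labelled knockout, so it does not separate the groups (limma log2 fold change 0.43, adjusted p = 0.841). The part of the gene that was deleted is not given, and reads outside it check nothing. Each direction below is one between libraries labelled knockout and wild type. Tissue markers differed between libraries, most of all in labelled-knockout library 1. The 7 fat cell markers summed to 34969 there against 1412 or less elsewhere, the 9 neutrophil markers to 4513 against 425 to 1575, and the 7 erythroid markers to 13549 against 761 to 2973. Its 8 proximal tubule markers summed to 149074 against 45717 to 103752 elsewhere, with 7 of them highest there and Slc22a6 lowest. Its 6 tubular injury markers summed to 25594 against 83908 or more elsewhere, with Havcr1, Lcn2 and Clu the lowest of the 6 libraries there and Krt20, Vcam1 and Sox9 not. Labelled-knockout library 3 was lowest in the sum of the 3 collecting duct markers (1773 against 7087 or more). Of these, Fxyd4 was lower in labelled-knockout library 1 (438 against 628). Library 3 was also lowest in the 5 endothelial markers (2902 against 5889 or more). The sums of the 6 fibroblast and smooth muscle markers did not overlap between the groups. They were 20064, 26011 and 12025 in wild type and 5180, 9738 and 3484 in labelled knockout. Of these markers Dcn alone overlapped, and its highest value of the 6 libraries, 1869, was in labelled-knockout library 1. In the other tissue lists, Lcn2, Clu, Plvap, Emcn, Mrc1, Cldn16 and Fxyd4 were lower in every labelled-knockout library than in any wild-type library. Lcn2 stood at 14679, 27779 and 18445 in wild type and at 4180, 7747 and 11101 in labelled knockout. Slc5a2, Slc3a1 and Marco were higher in each, with Marco at 0 in wild type. Over all genes, groups did not overlap with lower values for 9.43% and with higher values for 8.27%. The part of these markers in the results below was not tested. Values with 1 library left out stand beside many of the results, and not only where the move is largest. In whole tissue, fewer cells of a type and less RNA per cell cannot be told apart.

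The comparison asks which NRF2 genes differ with the labelled Cxcr2 genotype in injured kidney. Of the 10 genes, Cbr3 and Nqo1 had lower values in every library labelled knockout than in every wild-type library, and Gclc had higher ones. The other 7, including Nfe2l2 and Keap1, overlapped between groups. None of the 10 passed the threshold, an adjusted p under 0.05, with limma, edgeR or DESeq2. Of the genes tested, 0.00460% of 21721 passed with limma, 0.00628% of 15915 with edgeR and 1.80% of 17223 with DESeq2. At an unadjusted p under 0.05, limma placed 1 of the 10 higher (3.94% of all genes) and 2 lower (6.14%). Groups did not overlap for 1 member with higher values (8.27% of all genes) and for 2 with lower values (9.43%). The median log2 fold change of the 10 was -0.14, with 8 lower and 2 higher, against -0.0010 over all genes tested, and -0.20, with 6 lower and 4 higher, when labelled-knockout library 1 was left out. The 10 genes are thus described by their values, and no change of any of them passed the test.

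**Figure D1:**
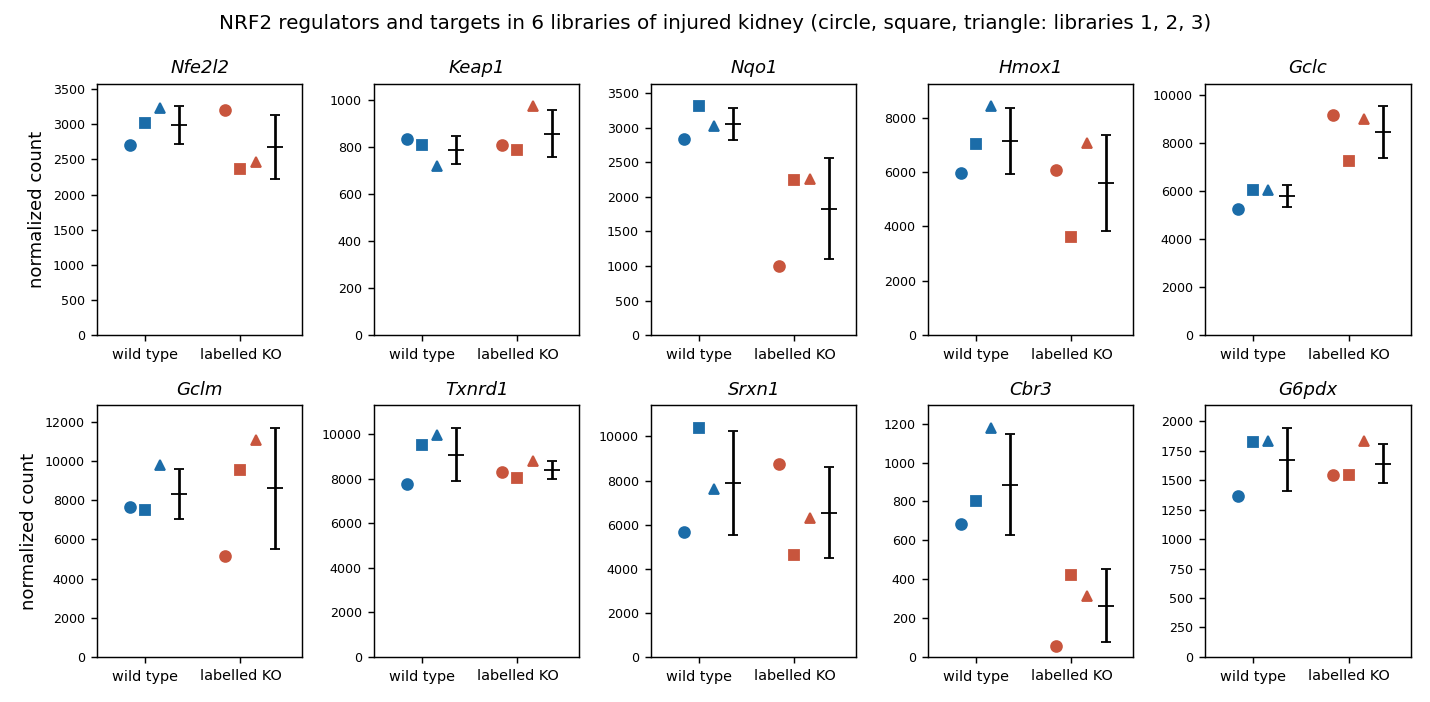
Normalized counts of the 10 genes in each library, with wild type in blue, libraries labelled knockout in red, marker shape for the library number, and the mean with its SD (n = 3) in black. In Cbr3 and Nqo1 all red points lie under the blue ones, in Gclc all lie above, and the circle of labelled-knockout library 1 is the lowest red point for Nqo1, Cbr3 and Gclm.

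The regulators come first. Nfe2l2 (ENSMUSG00000015839, chromosome 2 from 75675513 to 75704641 in mm10) stood at 2705, 3025 and 3233 normalized counts in wild-type libraries 1 to 3 and at 3200, 2371 and 2467 in labelled-knockout libraries 1 to 3. Labelled-knockout library 1 lay within the wild-type range, and the other two lay under it. With limma the log2 fold change was -0.17 (SE 0.17, 95% interval -0.56 to 0.23, adjusted p = 0.759), and -0.30 without labelled-knockout library 1. Keap1, the substrate adaptor that holds NRF2 in check (chromosome 9 from 21229730 to 21239361), stood at 833, 808 and 721 in wild type. It stood at 810, 789 and 974 in the libraries labelled knockout, where library 3 was the highest of the 6. Its log2 fold change was 0.12 (95% interval -0.24 to 0.48, limma adjusted p = 0.821), and 0.024 with labelled-knockout library 3 or 0.057 with wild-type library 3 left out. Keap1 overlaps the antisense gene Gm16754, and since the use of strand in counting is not given, reads of the 2 genes may not have been separated.

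Cbr3, a carbonyl reductase that uses NADPH, varied most of the 10, over 4.38 log2 units across the 6 libraries. It stood at 682, 802 and 1176 normalized counts in wild type and at 55.7, 421 and 314 in labelled-knockout libraries 1 to 3. The 3 libraries labelled knockout were all under the lowest wild-type library, and library 1 was far under the other two, with 50 reads. The means were 887 ± 258 and 264 ± 188 (SD, n = 3), a 3.36-fold lower mean in labelled knockout. The log2 fold change was -2.14 (SE 0.72, 95% interval -3.85 to -0.43), with an adjusted p of 0.431 with limma, 0.388 with edgeR and 0.0722 with DESeq2. Without labelled-knockout library 1 it was -1.25 (SE 0.25, limma adjusted p = 0.175), so the size of the difference rests in large part on that library and its direction does not. Cbr3 (ENSMUSG00000022947) lies on chromosome 16 from 93683215 to 93690990 with no overlapping gene in GENCODE M21.

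Nqo1, the quinone reductase whose transcript is a standard readout of NRF2 activity, showed the same order of groups with a smaller distance. It stood at 2839, 3307 and 3019 in wild type and at 996, 2237 and 2260 in the libraries labelled knockout. The wild-type libraries were close together, labelled-knockout libraries 2 and 3 were nearly equal, and library 1 was again the lowest. The log2 fold change was -0.83 (SE 0.31, 95% interval -1.53 to -0.13, adjusted p by limma = 0.445), and -0.44 (SE 0.14, limma adjusted p = 0.264) without labelled-knockout library 1. Nqo1 (ENSMUSG00000003849) lies on chromosome 8 from 107388225 to 107403206.

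The glutathione genes Gclc and Gclm encode the catalytic and the modifier subunit of glutamate-cysteine ligase, the enzyme that limits the rate of glutathione synthesis. Gclc (chromosome 9 from 77754535 to 77794485) stood at 5241, 6025 and 6035 in wild type and at 9133, 7222 and 8978 in the libraries labelled knockout. All 3 of the latter were above the highest wild-type library. The means were 5767 ± 456 and 8444 ± 1062 (SD, n = 3), 1.46-fold higher in labelled knockout. The log2 fold change was 0.55 (SE 0.17, 95% interval 0.16 to 0.93, adjusted p by limma = 0.391), and 0.48 without labelled-knockout library 1. It kept this sign in all 15 alternatives, from 0.45 to 0.65.

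Gclm did not follow Gclc. Gclm lies on chromosome 3 from 122245557 to 122270732 and overlaps the pseudogene Gm6061. It stood at 7663, 7481 and 9801 in wild type and at 5159, 9564 and 11087 in labelled-knockout libraries 1 to 3, which held both the lowest and the highest value. Its log2 fold change was -0.013 (SE 0.28, 95% interval -0.66 to 0.63, adjusted p by limma = 0.992), and 0.32 without labelled-knockout library 1, so its sign rests on that library. Per kilobase, the ratio of Gclc to Gclm was 1.14, 1.35 and 1.03 in wild type and 2.96, 1.26 and 1.35 in labelled knockout. The ratio was thus high in labelled-knockout library 1 alone, and libraries 2 and 3 lay within or just above the wild-type range.

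**Figure D2:**
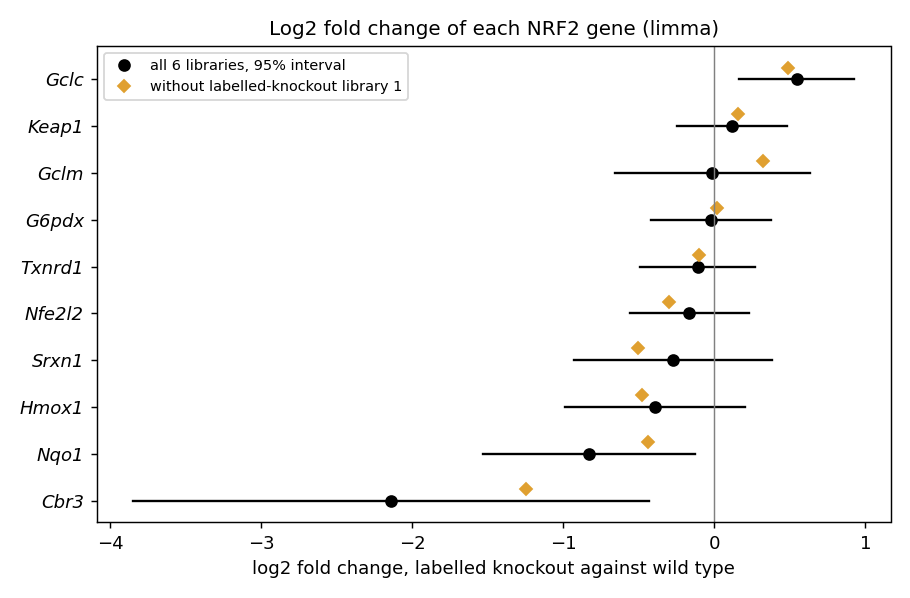
Log2 fold change of each gene, labelled knockout against wild type (horizontal axis), with its 95% interval in limma over all 6 libraries (black) and the value without labelled-knockout library 1 (orange diamonds). The intervals of Cbr3, Nqo1 and Gclc lie off 0, Cbr3 moves from -2.14 to -1.25 without that library, and Gclm moves from -0.013 to 0.32.

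The thioredoxin arm is represented by Txnrd1 and Srxn1. Txnrd1, the cytosolic thioredoxin reductase (chromosome 10 from 82833951 to 82897712, overlapping Eid3 on its own strand), stood at 7748, 9542 and 9982 in wild type and at 8309, 8019 and 8815 in labelled knockout. All 3 of the latter lay within the wild-type range (log2 fold change -0.11, 95% interval -0.49 to 0.27, limma adjusted p = 0.843). Omitting wild-type library 1 gave -0.22, and omitting wild-type library 3 gave -0.038. Srxn1, the sulfiredoxin that restores over-oxidised peroxiredoxins (chromosome 2 from 152105516 to 152111376), stood at 5663, 10374 and 7623 in wild type and at 8742, 4621 and 6281 in labelled knockout. It spread widely in both groups (log2 fold change -0.27, 95% interval -0.93 to 0.38, limma adjusted p = 0.763). In contrast to Cbr3 and Nqo1, labelled-knockout library 1 had the highest Srxn1 of its group, and the log2 fold change was -0.51 without it, -0.046 without labelled-knockout library 2 and -0.054 without wild-type library 2.

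Hmox1, haem oxygenase 1, had the highest level per length of the 10. It lies on chromosome 8 from 75093621 to 75100589. It stood at 5981, 7025 and 8414 normalized counts in wild type and at 6085, 3627 and 7071 in labelled knockout. Library 2 was under all others, while libraries 1 and 3 lay within the wild-type range. The log2 fold change was -0.39 (SE 0.26, 95% interval -0.99 to 0.20, limma adjusted p = 0.626), -0.11 without labelled-knockout library 2 and -0.59 without library 3. Hmox1 is also made in macrophages and is induced by haem. Labelled-knockout library 2 had the lowest summed level of the 10 macrophage markers, 3556 against 4767 to 8500 in the other 5 libraries. Singly, Adgre1, Csf1r, Lyz2 and Vcam1 were lowest there. C1qa, C1qb, Mrc1 and Cd163 were lowest in labelled-knockout library 3, Cd68 in library 1 and Marco in wild type. The haemoglobin transcripts Hba-a1 and Hbb-bs stood at 4915 and 6899 in labelled-knockout library 1, while Hmox1 there was within the wild-type range. The part of macrophages and of blood in these values was not tested.

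G6pdx, the X-linked glucose-6-phosphate dehydrogenase that opens the pentose phosphate pathway (chromosome X from 74409483 to 74429194), stood at 1367, 1824 and 1835 in wild type and at 1545, 1543 and 1830 in labelled knockout. All 3 of the latter lay within the wild-type range (log2 fold change -0.023, 95% interval -0.42 to 0.37, limma adjusted p = 0.972). In every library Xist was at 7.80 or less and the Y-linked Ddx3y at 589 or more. G6pdx overlaps Ikbkg on the opposite strand over its whole length and shares 136 bases at 99.3% identity with it, so its count is uncertain.

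Levels of different genes are compared per kilobase of gene length as listed in the files. In wild type the order of mean levels was Hmox1 (4078 ± 697 normalized counts per kilobase), Srxn1 (2797 ± 839), Nqo1 (1967 ± 152), Gclc (1531 ± 121), Gclm (1322 ± 205), Txnrd1 (1283 ± 167), Nfe2l2 (787 ± 70.1), Cbr3 (707 ± 206), G6pdx (544 ± 86.6) and Keap1 (168 ± 12.5; SD, n = 3 each). Only Nqo1 and Gclc, Txnrd1 and Nfe2l2, and G6pdx and Keap1 were neighbours in this order whose libraries did not overlap. In labelled knockout Hmox1 (3195 ± 1013) and Srxn1 (2322 ± 735) again came first. Nqo1, the third in wild type, came the sixth by its mean (1179 ± 466), after Gclc (2242 ± 282), Gclm (1368 ± 489) and Txnrd1 (1183 ± 56.8). The libraries of Gclm, Txnrd1 and Nqo1 overlapped, and Nqo1 was above Txnrd1 in labelled-knockout libraries 2 and 3, so this place rests on library 1. Cbr3 came under G6pdx at the ninth place (210 ± 150), and Keap1 had the lowest mean in both groups. Neighbours whose libraries did not overlap in labelled knockout were Gclc and Gclm, Nfe2l2 and G6pdx, and G6pdx and Cbr3.

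Spread between libraries was itself uneven among the 10. The coefficient of variation of Cbr3 was 29.1% in wild type and 71.3% in labelled knockout, that of Nqo1 7.72% and 39.5%, and that of Txnrd1 13.0% and 4.80%. In labelled-knockout library 1 the log2 distance from the wild-type mean was -3.93 for Cbr3, -1.61 for Nqo1, -0.68 for Gclm and 0.67 for Gclc, and within 0.22 of 0 for the remaining 6. Targets of the same factor thus stood on both sides of the wild-type mean within 1 library. Without that library, groups did not overlap for 3 genes with lower values, Nfe2l2, Nqo1 and Cbr3 (16.0% of all genes), and for Gclc with higher ones (15.7% of all genes).

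Genes of most similar profile were found as those with the smallest root mean square difference between centred log2 values over the 6 libraries, among 10939 other named genes with a mean of at least 100. For Cbr3 they were Rrm2, the small subunit of ribonucleotide reductase (difference 0.19), E2f1, a cell cycle transcription factor (0.20), and Brca1, a DNA repair protein (0.22). Rrm2 stood at 600, 931 and 1002 in wild type and at 60.1, 447 and 382 in labelled knockout. E2f1 stood at 309, 379 and 464 and then at 31.2, 247 and 171. All 3 were lowest in labelled-knockout library 1 and highest in wild-type library 3, as was Cbr3. For Nfe2l2 the closest were Btbd3 (0.026), Smim13 (0.038) and Mmadhc (0.048), over a range of only 0.45 log2 units. Such matches over 6 libraries are a description of likeness.

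**Figure D3:**
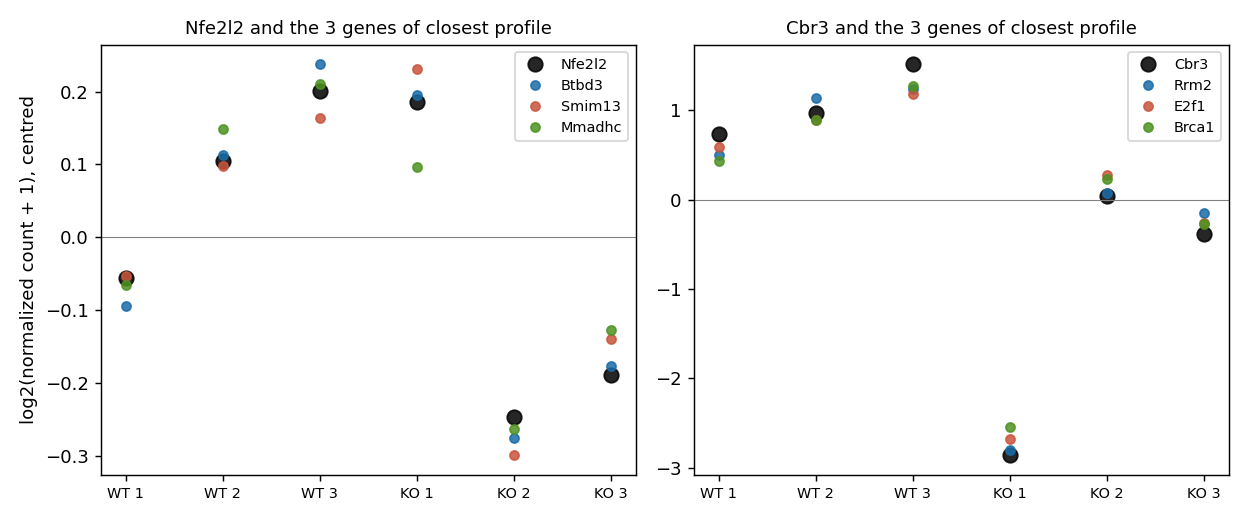
Centred log2(normalized count + 1) in each library for Nfe2l2 (left) and Cbr3 (right), each in black, with the 3 genes of closest profile in colour. Cbr3 spans 4.38 log2 units with labelled-knockout library 1 at the bottom, and Nfe2l2 0.45 units with labelled-knockout libraries 2 and 3 at the bottom.

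A wider set of 55 genes in 6 lists shows where the 10 sit in the pathway. All 55 were tested with limma, and none passed with limma or edgeR. DESeq2 gave no adjusted p for Gpx2, Gstm3 and Aox1. Among the rest it placed 4 past its threshold, all lower (it called 1.20% of 17223 tested genes lower). The median log2 fold change was -0.13, with 34 lower and 21 higher, and -0.12 with 33 lower when labelled-knockout library 1 was left out. The carbonyl and xenobiotic enzymes, to which Nqo1 and Cbr3 are related by role, had the lowest median of the 6 lists. It was -0.57, with 9 of 11 lower, and -0.51 with 8 of 11 lower when labelled-knockout library 1 was left out. By library, the median log2 distance of its genes from their wild-type means was -1.11, -0.34 and -0.69 in the 3 libraries labelled knockout, and 0.030 to 0.097 in wild type.

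Within that list the 2 genes of smallest p were Aldh1a1, a retinaldehyde dehydrogenase, and Ptgr1, a reductase of prostaglandins and of reactive alkenals. Aldh1a1 stood at 843, 775 and 862 in wild type and at 293, 378 and 428 in labelled knockout. Its log2 fold change was -1.19 (SE 0.19, adjusted p = 0.251 with limma and 0.000388 with DESeq2). Ptgr1 stood at 313, 347 and 313 and then at 149, 168 and 140, which is a difference of -1.08 on the log2 scale (SE 0.21, adjusted p = 0.368 with limma and 0.00157 with DESeq2). Both were lower in every library labelled knockout. Library 1 was the lowest of its group for Aldh1a1, as for Cbr3, and not for Ptgr1. Without that library the log2 fold changes were -1.04 for Aldh1a1 and -1.07 for Ptgr1. Cbr1, the close relative of Cbr3, was at 3340, 2542 and 3873 and then at 1661, 2523 and 1992 (log2 fold change -0.66, limma adjusted p = 0.415, and -0.51 with library 1 left out). Osgin1, a growth inhibitor induced by oxidative stress, stood at 1362, 885 and 1443 and then at 5049, 1534 and 1505 (log2 fold change 0.91, limma adjusted p = 0.566). Its high value was in library 1 alone, and 0.34 was left without that library. Cbr1 and Osgin1 were chosen after their values were seen.

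The glutathione list had a median of -0.31, with 12 of 15 lower, and -0.28 with 11 of 15 lower without labelled-knockout library 1. Gsta4, a glutathione transferase for lipid peroxidation products, stood at 1295, 1140 and 902 in wild type and at 520, 666 and 268 in labelled knockout. Its log2 fold change was -1.28 (SE 0.32, adjusted p = 0.377 with limma and 0.0396 with DESeq2). Omitting labelled-knockout library 3 gave -0.90 for Gsta4, and omitting library 2 gave -1.56. The glutathione peroxidase Gpx2 was near the detection limit, at 15.0, 3.70 and 5.69 and then at 0, 1.94 and 0. All 4 thioredoxin and peroxiredoxin genes had negative log2 fold changes, and 3 of 4 without labelled-knockout library 1. Prdx1, an abundant peroxiredoxin, stood at 21296, 21713 and 20387 and then at 10727, 13217 and 19687, so labelled-knockout library 3 came close to wild type (log2 fold change -0.59, limma adjusted p = 0.463). Leaving out labelled-knockout library 1 brought Prdx1 to -0.39, and leaving out library 3 brought it to -0.83. Txn1, thioredoxin itself, had a log2 fold change of -0.45 (limma adjusted p = 0.613), which was -0.12 with library 1 left out and -0.73 with library 3 left out.

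The other lists did not lean the same way. Regulators and partners had a median of 0.17 with 10 of 14 higher, but -0.012 with 6 of 14 higher without labelled-knockout library 1, so its direction rests on that library. Among them Sqstm1 (p62), which competes with NRF2 for KEAP1, stood at 15549 to 15967 in wild type and at 29827, 20096 and 19494 in labelled knockout (log2 fold change 0.53, limma adjusted p = 0.452, and 0.33 with labelled-knockout library 1 left out). Rbx1, the RING subunit of the CUL3 ligase, had a log2 fold change of -0.39 (limma adjusted p = 0.526), or -0.25 with that library left out. NADPH supply genes had a median of -0.015, which was 0.16 when labelled-knockout library 1 was omitted and -0.26 when library 3 was. Malic enzyme Me1 stood at 0.52 (limma adjusted p = 0.493), and at 0.33 with wild-type library 2 omitted. Isocitrate dehydrogenase Idh1 stood at -0.55 (limma adjusted p = 0.541), and at -0.28 with labelled-knockout library 1 omitted. Haem and iron genes had a median of 0.17 with 4 of 6 higher, which became 0.42 when labelled-knockout library 1 was left out and -0.046 when library 3 was. Among them Blvrb, a biliverdin reductase, stood at 1034, 1547 and 1060 and then at 321, 593 and 567. Its log2 fold change was -1.32 (SE 0.27, adjusted p = 0.368 with limma and 0.00716 with DESeq2). For Blvrb, -1.04 was left with labelled-knockout library 1 omitted and -1.48 with library 2 omitted. The iron exporter Slc40a1 stood at 0.42 (limma adjusted p = 0.587), at 0.64 with labelled-knockout library 1 omitted and at 0.18 with library 3 omitted. Prdx1, Txn1, Me1, Rbx1, Gpx2 and Rrm2 share stretches of at least 95% identity with pseudogenes, and Sqstm1 shares 583 bases with Mrnip, so their counts are uncertain.

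**Figure D4:**
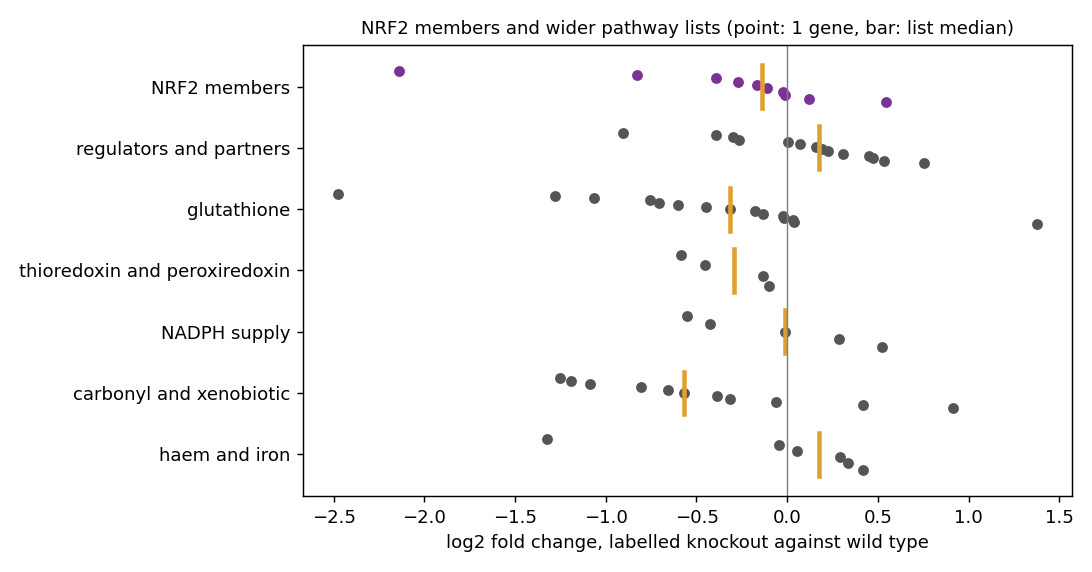
Log2 fold changes, labelled knockout against wild type (horizontal axis), of the 10 genes (purple) and of the 6 wider lists (grey), where each point is 1 gene and each orange bar a median. The carbonyl and xenobiotic list has its bar at -0.57, the glutathione list at -0.31, and the lists of regulators and of haem and iron genes at 0.17, which turn to -0.012 without labelled-knockout library 1 and to -0.046 without library 3.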

How the data were processed

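The signal values the authors deposited are normalized read counts. Each library's values are whole multiples, within 0.001 reads, of 1 step, so reads and size factors could be recovered. The build was mm10, per the submitters' processing notes, and for the aligner, counting program, use of strand and kit no source used here gives a name. Gene lengths are in another deposited column, whose making is not stated. Samples were grouped by their titles. The main test was limma 3.58.1 (trend, robust) on log2(value + 1) over the 21721 genes with a mean of at least 1, with Benjamini-Hochberg adjustment over all of them. This scale understates the change of low genes. edgeR 4.0.16 and DESeq2 1.42.0 were run on the recovered reads in R 4.3.3, and other scalings, pseudocounts, filters, a replicate block and leaving out each library were tried. The limma, edgeR and DESeq2 fits were tested on simulated counts. No 2 libraries agreed within sampling noise (lowest chi-square over its degrees of freedom 34.0). The 10 genes and the wider lists were chosen with earlier results of these data known. Named beyond the 10 were the 2 genes of smallest p in each wider list and the 3 of closest profile to Nfe2l2 and to Cbr3, besides Cbr1 and Osgin1, which were chosen after their values were seen. Shared stretches were found by BLAST over at least 100 bases.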

Additional observations from a re-analysis of the deposited data

How the results depend on the processing

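With 3 libraries a group, the intervals of the log2 fold changes leave room for differences of the sizes shown. The count of all genes past the threshold, 1 higher and 0 lower in the main test, moved with the processing: 103 and 207 with DESeq2, 3 and 1 with TMM scaling or scaling to library totals, 3 and 2 without a filter, 1 and 1 with a pseudocount of 10, and 1 to 3 and 0 to 3 with 1 library left out. With the replicate block it was 6 and 10, but same-numbered libraries had deviation correlations of 0.067, -0.15 and 0.12, and not every library correlated best with its own number, so they share only a number. The block changed no call of the 10 genes. The medians of the 10 genes and of the wider lists moved by less than their spread between libraries. Over 29 named genes, 420 of 433 alternative values kept direction and side of the threshold. Gclm turned to 0.050 with edgeR and 0.049 with DESeq2 and ran from -0.23 to 0.32 with 1 library left out, G6pdx from -0.16 to 0.049 and Cxcr2 from -0.27 to 0.94. The cause was not tested. Without wild-type library 2, the limma adjusted p of Cbr3, Nqo1 and Gclc was 0.946, the highest over their alternatives, and the lowest were 0.0722, 0.264 and 0.143. The values without labelled-knockout library 1 or 3 for each list, without library 1 for overlap, and with 1 library left out for Cbr1 and Osgin1, were chosen after seeing the data.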
